A study of Mus musculus with 10 samples.

Results

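RNA levels of 9 genes were followed through 10 mouse libraries: Morf4l2, its paralog Morf4l1, their binding partner Mrfap1, the X-linked neighbour Tceal1, and 5 subunits of the NuA4 (TIP60) histone acetyltransferase complex, Kat5, Ep400, Trrap, Epc1 and Ing3. They are the rows with these symbols among the 21937 gene symbols of the deposited table, and all 9 were found. Morf4l2 and Tceal1 were chosen because their values differed between cell lines in both cultures of the study, so those differences are given as a description with no test. The other 7 were chosen for what they are known to do. All cells were differentiating mouse embryonic stem (ES) cells on a C57BL/6 background, and each condition and day had 1 library. In the serum-free SFEB culture, used to steer ES cells to neuroectoderm, there were Tet3 knockout cells with Dkk (KO with Dkk), Tet3 knockout cells (KO) and wild-type cells (WT), each on days 6 and 10. In the culture with fetal bovine serum (FBS), described by the labels as non-permissive for neural differentiation, there were Tet3-overexpressing cells (Tet3OE) and control cells, each on days 4 and 7. The knockout had been made in-house from mice with floxed Tet3 alleles by a brief expression of Cre, which cut out the flanked exon. Dkk is a secreted inhibitor of Wnt signalling at the receptor. The sources used here give neither the number of clones, nor the means of overexpression, nor the kind and dose of Dkk, so genotype and cell line cannot be told apart.

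Morf4l1 (MRG15) and Morf4l2 (MRGX) share the MRG domain, through which they join both the NuA4 complex, which acetylates histones, and SIN3 complexes, which remove acetyl groups. Morf4l1 also has a chromodomain, which binds methylated histone tails, and Morf4l2 lacks it. Kat5 is the catalytic acetyltransferase of NuA4, Trrap the scaffold that contacts transcription factors, Ep400 the ATPase that exchanges histone variants, Epc1 the subunit that holds the catalytic module to nucleosomes, and Ing3 a reader of methylated histone H3. Mrfap1 is a small protein that binds the MRG proteins. Tceal1 belongs to a family of small X-linked nuclear proteins related to transcription elongation factor A. Tet3 oxidises 5-methylcytosine, the methylated base of CG dinucleotides.

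The bases before the annotated starts of Morf4l2, Tceal1 and Morf4l1 are shown here because the first 2 genes move together in these data and the last, a paralog of Morf4l2, does not. Each is the 250 bases upstream of a RefSeq start in GRCm38.p6, read 5′ to 3′ on the strand of the gene, with each CG in capitals. RefSeq lists 4 starts for Morf4l2, and the window shown is that of the outermost start.
Morf4l2, chrX:136743687-136743936, minus strand: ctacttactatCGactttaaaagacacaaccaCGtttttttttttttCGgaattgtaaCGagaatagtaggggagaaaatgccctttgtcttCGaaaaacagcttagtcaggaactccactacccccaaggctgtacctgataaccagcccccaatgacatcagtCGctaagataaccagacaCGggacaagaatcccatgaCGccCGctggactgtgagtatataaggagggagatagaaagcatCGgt
Tceal1, chrX:136707732-136707981, plus strand: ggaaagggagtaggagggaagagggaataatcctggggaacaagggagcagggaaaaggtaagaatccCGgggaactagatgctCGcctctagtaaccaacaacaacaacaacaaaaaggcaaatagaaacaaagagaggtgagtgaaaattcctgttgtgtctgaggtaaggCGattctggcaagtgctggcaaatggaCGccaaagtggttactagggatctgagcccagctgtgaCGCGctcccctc
Morf4l1, chr9:90114821-90115070, minus strand: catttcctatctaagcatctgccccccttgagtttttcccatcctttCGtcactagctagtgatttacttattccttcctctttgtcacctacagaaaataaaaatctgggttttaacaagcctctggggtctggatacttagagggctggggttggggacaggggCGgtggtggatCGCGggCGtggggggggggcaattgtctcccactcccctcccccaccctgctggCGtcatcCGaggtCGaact
These windows held 10, 6 and 8 CG, in the order shown, and the median of 32851 such windows in the RefSeq table was 6. More CG than in the windows shown were found in 35.6% of all windows for Morf4l2, 46.3% for Tceal1 and 40.3% for Morf4l1. The other Morf4l2 starts had 8, 11 and 21 CG in their windows. The windows of Mrfap1, Trrap, Ep400, Kat5 and Ing3 had 15 to 29 CG. Motifs were searched letter for letter on both strands with overlaps allowed. The letters CCAAT were found in 33.8% of all windows, GGGCGG in 32.7% and TATAAA in 12.4%, and CG in 92.1%. In the windows shown there was 1 CCAAT before Morf4l2 and 1 GGGCGG before Morf4l1, neither motif was present before Tceal1, and TATAAA was in none of the 3 windows. Only these exact letters were searched, so variants were not counted, such as the tatataag near the end of the Morf4l2 window. A match of letters is a description and no measurement of binding, and DNA methylation was not analysed here.

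Levels are in RPKM, which scales reads by transcript length and library size, as the authors deposited them, and ratios are differences of log2(RPKM + 0.5), which understates the change of low genes. From the steps between low values, the libraries came to an estimated 10100000 to 44000000 reads, and 95% counting intervals of ratios (Clopper-Pearson) rest on those estimates and cover counting error only. Tet3 itself stood at 12.5 and 14.1 RPKM in Tet3OE cells on days 4 and 7, against 0.96 and 5.87 RPKM in control cells. Among SFEB libraries Tet3 was at 7.64 RPKM in KO with Dkk, 6.59 RPKM in KO and 8.11 RPKM in WT on day 6. On day 10 it was at 13.1 RPKM in KO with Dkk, 14.3 RPKM in KO and 10.2 RPKM in WT. A value for the whole gene does not check the loss of 1 exon. The pluripotency factor Pou5f1 was at 879.9 to 1186 RPKM in both Tet3OE libraries and day 4 control cells, at 207 RPKM in day 7 control cells and at 3.06 to 58.1 RPKM in SFEB cells. Xist and 4 Y-linked genes summed to between 0.01 and 0.98 RPKM in a library.

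Across the 10 libraries the 9 genes lay at very different levels. Morf4l1 had the highest median, 328 RPKM, followed by Morf4l2 at 211 and Mrfap1 at 184 RPKM. Each was above the median of over 97.5% of the 13757 genes that reached 1 RPKM in at least 1 library. Kat5 had a median of 25.1 RPKM, Trrap 14.4, Ep400 12.7, Epc1 10.1, Ing3 7.65 and Tceal1 3.58 RPKM. With 1 library per condition, neighbours in this order such as Trrap and Ep400, whose ranges of 12.35 to 21.5 and 10.1 to 19.0 RPKM overlap, are not separated. The span from the lowest to the highest library was 4.21 on the log2 scale for Tceal1, 3.63 for Morf4l2 and 2.09 for Epc1. For the other 6 genes it was 0.50 to 0.92, below the median span of 1.62 over 13757 genes. Ing3 was the steadiest of the 9, and 97.4% of genes had a larger span.

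**Figure D1:**
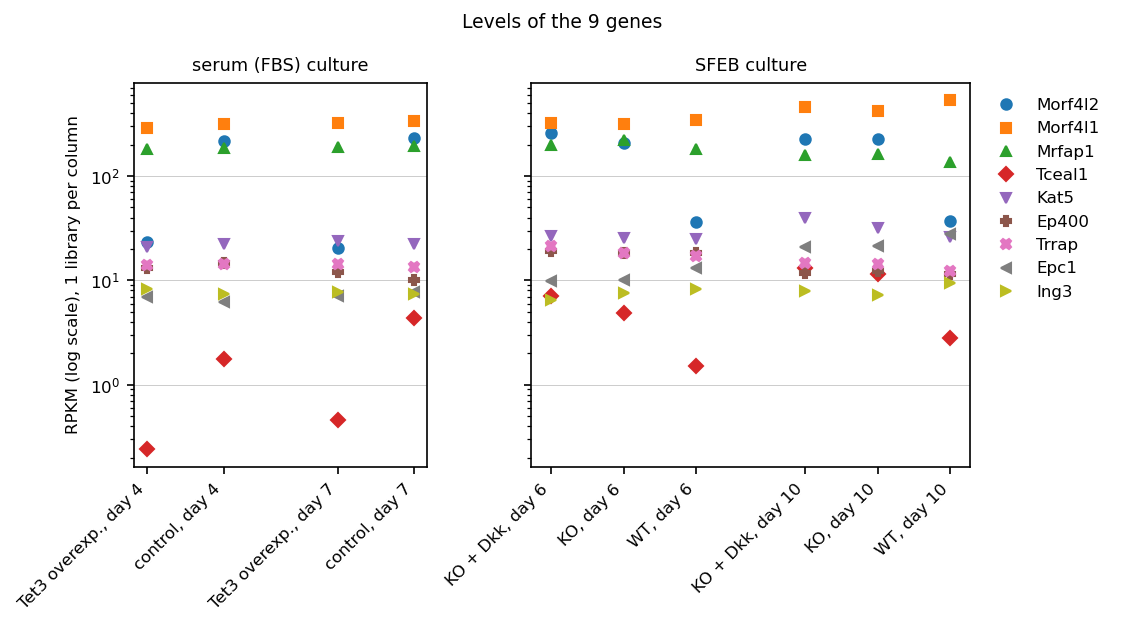
RPKM of each of the 9 genes (log axis) in each of the 10 libraries, FBS culture on the left and SFEB culture on the right, 1 marker per library. Morf4l2 and Tceal1 drop in Tet3OE and WT libraries, while Morf4l1 stays between 291 and 529.7 RPKM and Ing3 between 6.52 and 9.46 RPKM.

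Morf4l2 took 2 levels that split the 10 libraries by line. It was at 23.1 RPKM in Tet3OE cells and 215 RPKM in control cells on day 4, then at 20.6 RPKM in Tet3OE and 230.2 RPKM in control cells on day 7. In the SFEB culture it was at 261 RPKM in KO with Dkk, 207 RPKM in KO and 36.3 RPKM in WT on day 6. Its day 10 level was 225.6 RPKM in KO with Dkk, 225.7 RPKM in KO and 37.1 RPKM in WT. The 6 libraries of control, KO and KO with Dkk cells were thus at 207 to 261 RPKM and the 4 libraries of Tet3OE and WT cells at 20.6 to 37.1 RPKM, with none between, so control and WT, the lines that the modified ones were compared with, lay on opposite sides. The ratio of KO to WT was 5.71-fold on day 6 (log2 2.50, counting interval 2.34 to 2.69) and 6.09-fold on day 10 (log2 2.59, interval 2.45 to 2.77). Tet3OE cells were 9.31-fold lower than control on day 4 (log2 -3.19, interval -3.36 to -3.08) and 11.2-fold lower on day 7 (log2 -3.45, interval -3.65 to -3.32). The low level in Tet3OE cells was also below that of WT cells in the other culture, where culture, day and line all differ.

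Tceal1 followed the same split at a far lower level. It was at 0.24 RPKM in Tet3OE and 1.78 RPKM in control cells on day 4, then at 0.46 RPKM in Tet3OE and 4.39 RPKM in control cells on day 7. Day 6 values were 7.02 RPKM in KO with Dkk, 4.89 RPKM in KO and 1.50 RPKM in WT, and day 10 values 13.2 RPKM in KO with Dkk, 11.4 RPKM in KO and 2.78 RPKM in WT. Within each culture and day every KO or control library was above its partner, but over all 10 libraries the sides overlapped, since day 10 WT cells were above day 4 control cells. KO was 3.26-fold above WT on day 6 (log2 1.43, counting interval 1.21 to 2.25) and 4.09-fold on day 10 (log2 1.86, interval 1.69 to 2.39). Tet3OE was 7.42-fold below control on day 4 and 9.54-fold on day 7 by the RPKM themselves, and -1.62 and -2.35 on the log2(RPKM + 0.5) scale. With a pseudocount of 0.1 the day 4 value was -2.47.

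At 2-fold or more, 2 of the 9 genes were higher in KO than in WT on day 6, where 4.88% of 12912 genes were, and 0 lower, where 2.18% were. On day 10 the same 2 were higher (8.26% of genes) and 0 lower (1.96%). In Tet3OE against control, 2 of 9 were lower on day 4, where 3.47% of 12387 genes were, and 0 higher, where 1.72% were. On day 7, 2 were lower (11.1% of genes) and 0 higher (6.96%). Against WT, KO with Dkk had 2 of 9 higher and 0 lower on day 6 (1.58% and 0.976% of genes) and 2 higher and 0 lower on day 10 (4.59% and 1.68%). In each case the 2 genes were Morf4l2 and Tceal1, and since they were chosen on these contrasts nothing is read from the counts. No other member reached 2-fold in the 8 comparisons of single libraries. In the 4 line comparisons that chose them, the smallest ratio of the chosen genes was 1.43 for Tceal1 (KO minus WT, day 6) and the ratio of largest size among the other 7 was -0.39 for Epc1 (KO minus WT, day 10), both on the log2 scale.

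Few genes in the table had this arrangement of lines. Morf4l2 and Tceal1 were chosen on the contrasts between lines, so their ranks are a description and nothing is read from them. Of 11542 genes at 1 RPKM or more in both cultures, 18 (0.156%) were at least 2-fold higher in KO than in WT on both days and at least 2-fold lower in Tet3OE than in control on both days. Ranked by the smallest absolute ratio of the 4, Morf4l2 stood at rank 1 of all 11542 genes, with a value of 2.50 on the log2 scale, and Tceal1 at rank 11. The next 8 among the 18 by this measure, members aside, were Kdr (1.87), a receptor of vascular endothelial growth factor, Actc1 (1.57), cardiac actin, Ets1 (1.52), a transcription factor, Hrc (1.47), Has2 (1.47), a hyaluronan synthase, Emid2 (1.47), a collagen, Cxcl12 (1.43), a chemokine, and Cdc42ep1 (1.33). Kdr was at 0.22 and 5.05 RPKM in Tet3OE cells on days 4 and 7, against 2.13 and 36.3 RPKM in control cells. The reverse arrangement was shown by 3 genes. All 16 genes other than members that had the arrangement of Morf4l2 were lower in KO with Dkk than in KO on both days. The difference was 2-fold or more for 12 of them on day 6 and 10 on day 10, beside 3.57% and 5.23% of all genes. They had been selected for a high level in the same KO libraries, so nothing is read from these counts.

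**Figure D2:**
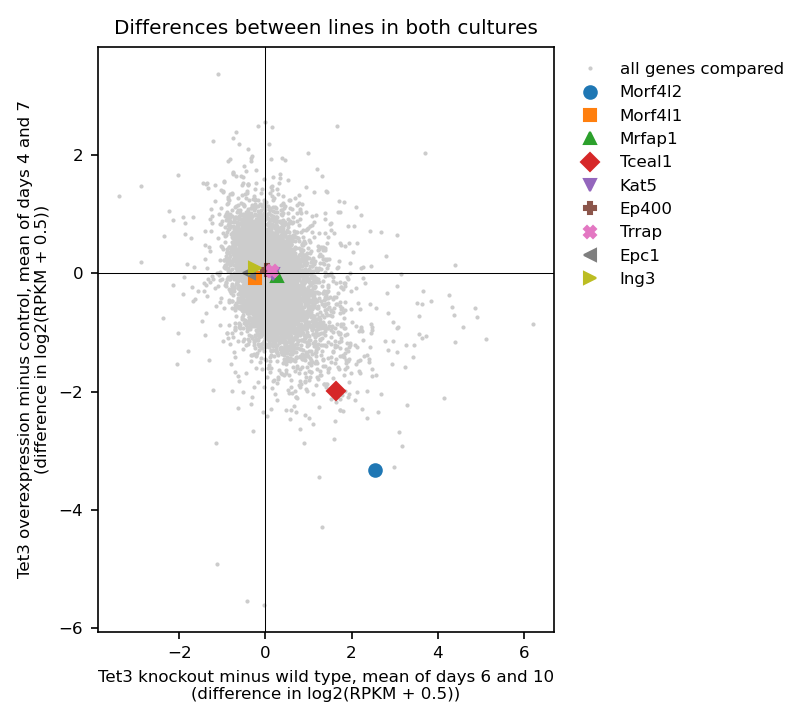
Each grey point is a gene at 1 RPKM or more in both cultures, with KO minus WT (mean of days 6 and 10) on the horizontal axis and Tet3OE minus control (mean of days 4 and 7) on the vertical axis, both as differences in log2(RPKM + 0.5). Morf4l2 and Tceal1 lie at the lower right, and the other 7 genes lie close to the origin.

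Morf4l2 and Tceal1 were within 2-fold of the KO level with Dkk. Morf4l2 was at 261 RPKM in KO with Dkk against 207 RPKM in KO on day 6 (log2 0.33, counting interval 0.24 to 0.42) and at 225.6 against 225.7 RPKM on day 10 (log2 -0.00, interval -0.07 to 0.07). Tceal1 was at 7.02 against 4.89 RPKM on day 6 (log2 0.48) and 13.2 against 11.4 RPKM on day 10 (log2 0.21). None of the 9 members was 2-fold different between KO with Dkk and KO. Across the 12912 genes compared, the shares past 2-fold were 2.18% higher and 3.57% lower on day 6, with 1.7% higher and 5.23% lower on day 10. An additive model was fitted over all 10 libraries (limma, with culture and day, KO, Dkk and Tet3OE as terms). Its Dkk effect on KO was 0.16 ± 0.14 (log2 ± SE) for Morf4l2 and 0.35 ± 0.26 for Tceal1. Both genes were chosen for their level in the same KO libraries, so no test is read for them in this contrast. Of the other 7 genes 0 were called at an adjusted p under 0.05 and 0 at an unadjusted p under 0.05. Over all 13757 genes limma called 0.0145% higher and 0.116% lower. The 3 residual degrees of freedom of this model come from the days of a culture and not from replicate cultures.

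The paralog Morf4l1 was high in every line. It was at 291 RPKM in Tet3OE and 313 RPKM in control cells on day 4, then at 321 RPKM in Tet3OE and 334 RPKM in control cells on day 7. In the SFEB culture Morf4l1 was at 321, 316 and 346 RPKM in KO with Dkk, KO and WT on day 6. On day 10 Morf4l1 was at 461 RPKM in KO with Dkk, 419 RPKM in KO and 529.7 RPKM in WT. On each day its highest SFEB library was the WT one and its lowest was KO. The additive model gave -0.23 ± 0.12 for KO minus WT (log2 ± SE, limma adjusted p = 0.433) and -0.08 ± 0.12 for Tet3OE minus control (adjusted p = 0.769), so neither difference passed the test. Across the 10 libraries the Pearson correlation of Morf4l1 with Morf4l2 was 0.05, given as a description of libraries that share lines and cultures.

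Morf4l1 was the more abundant of the pair in every library, but by very different margins. Morf4l2 made up 7.33% and 6.02% of the summed RPKM of the pair in Tet3OE cells on days 4 and 7, against 40.7% and 40.8% in control cells. On day 6 its part of the sum was 44.8% in KO with Dkk, 39.6% in KO and 9.50% in WT, and on day 10 it was 32.9%, 35.0% and 6.54%. The sum was 314 and 342 RPKM in Tet3OE cells on days 4 and 7, against 528 and 564.5 RPKM in control cells. In the SFEB culture it was 581, 524 and 382 RPKM on day 6 and 686, 645 and 567 RPKM on day 10 for KO with Dkk, KO and WT. The summed level was therefore lower in Tet3OE and WT than in their partner libraries on each day, and Morf4l1 was not higher by the amount that Morf4l2 was lower. Reads that match both paralogs may have been split between them, since the sources used here do not give the treatment of such reads.

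**Figure D3:**
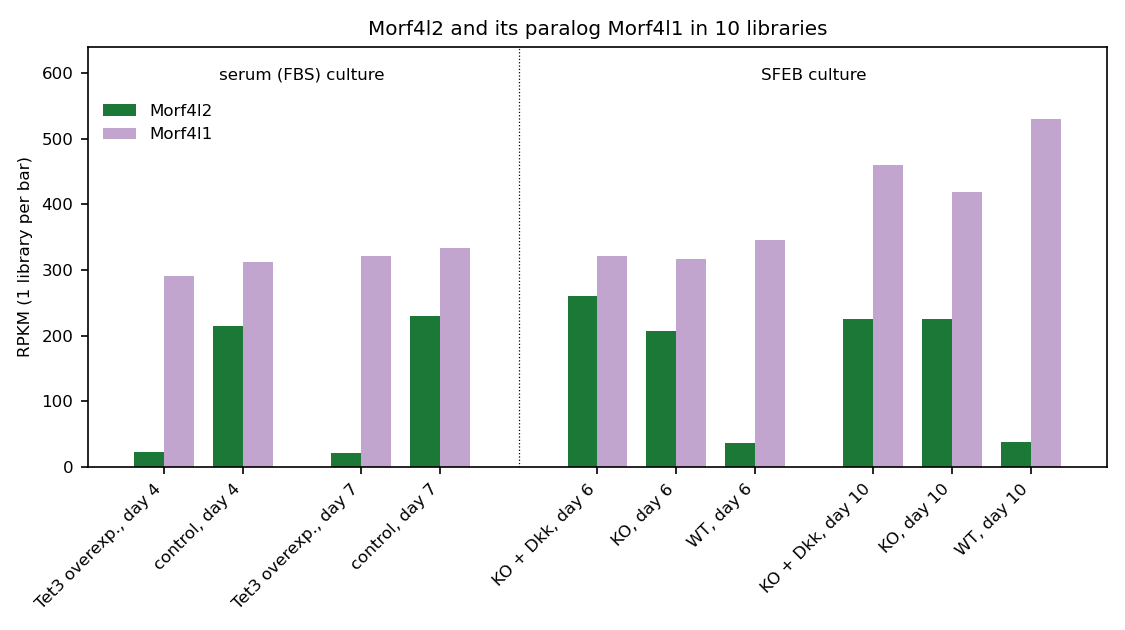
RPKM of Morf4l2 (green) and Morf4l1 (purple) in each of the 10 libraries, 1 library per bar, FBS culture left of the dotted line and SFEB culture right of it. Morf4l2 is at 20.6 to 37.1 RPKM in Tet3OE and WT libraries and at 207 to 261 RPKM in the rest, while Morf4l1 is at 291 RPKM or more in every library.

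Mrfap1, the binding partner of both paralogs, was within 2-fold between lines. It was at 182 RPKM in Tet3OE and 186 RPKM in control cells on day 4, then at 189.5 RPKM in Tet3OE and 196 RPKM in control cells on day 7. On day 6 it was at 198, 220.3 and 183 RPKM in KO with Dkk, KO and WT, and on day 10 at 158 RPKM in KO with Dkk, 164 RPKM in KO and 135 RPKM in WT. On both days WT was the lowest SFEB library, opposite to Morf4l1. The KO minus WT difference was 0.27 ± 0.11 (log2 ± SE) and did not pass the test (limma adjusted p = 0.328).

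The NuA4 subunits were within 2-fold between lines. Of the 7 genes other than Morf4l2 and Tceal1, limma called 0 in KO minus WT at an adjusted p under 0.05 and 2, Epc1 and Mrfap1, at an unadjusted p under 0.05. Over all 13757 genes it called 0.196% higher and 0.0145% lower, and 2017 genes had an unadjusted p under 0.05. In KO with Dkk minus WT it called 0 of the 7 (1, Epc1, at the unadjusted level), where 0.00727% of all genes were called higher and 0 genes lower, with 1618 genes at the unadjusted level. The 1 gene behind that share was Morf4l2 itself, for which no test is read. In Tet3OE minus control it called 0 of the 7 (0 at the unadjusted level), where 0.0436% were called higher and 0.0509% lower, with 2702 genes at the unadjusted level. Calls were rare over all genes in these contrasts, and a missing call does not show that the values were equal.

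Kat5, the catalytic subunit, was at 20.7 RPKM in Tet3OE and 22.45 RPKM in control cells on day 4, then at 24.0 RPKM in Tet3OE and 22.5 RPKM in control cells on day 7. In the SFEB culture Kat5 was at 26.6, 25.4 and 24.8 RPKM in KO with Dkk, KO and WT on day 6. Its day 10 levels were 39.4 RPKM in KO with Dkk, 31.75 RPKM in KO and 25.8 RPKM in WT. The day 10 ratio of KO with Dkk to WT, 0.60 on the log2 scale (counting interval 0.44 to 0.79), was the largest ratio of any of these 7 genes in the 8 comparisons. Rescaling each library to the same sum (TPM) shifted the median of all genes in that comparison by -0.13 on the log2 scale and gave 0.47 for Kat5. In the additive model KO with Dkk minus WT was 0.35 ± 0.16 for Kat5 (log2 ± SE, limma adjusted p = 0.453).

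Epc1 had its highest SFEB level in WT on both days. It was at 9.93 RPKM in KO with Dkk, 10.2 RPKM in KO and 13.1 RPKM in WT on day 6. Its day 10 levels were 20.8 RPKM in KO with Dkk, 21.2 RPKM in KO and 27.9 RPKM in WT. The KO minus WT difference was -0.37 ± 0.15 (log2 ± SE, limma adjusted p = 0.336), which did not pass the test. In the FBS culture Epc1 was at 6.90 RPKM in Tet3OE and 6.17 RPKM in control cells on day 4, then at 7.08 RPKM in Tet3OE and 7.80 RPKM in control cells on day 7, with no shared direction over the days.

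Ep400, Trrap and Ing3 also stayed within 2-fold between lines. Ep400 was at 13.2 RPKM in Tet3OE and 14.8 RPKM in control cells on day 4, then at 12.1 RPKM in Tet3OE and 10.1 RPKM in control cells on day 7. On day 6 Ep400 was at 19.0, 18.1 and 18.2 RPKM in KO with Dkk, KO and WT, and on day 10 at 11.7 RPKM in KO with Dkk, 12.3 RPKM in KO and 11.6 RPKM in WT. The 3 SFEB conditions lay close together on each day, and each was lower on day 10. Trrap was at 21.5 RPKM in KO with Dkk, 18.3 RPKM in KO and 17.3 RPKM in WT on day 6. By day 10 Trrap was at 14.8 RPKM in KO with Dkk, 14.5 RPKM in KO and 12.35 RPKM in WT. Trrap was at 13.3 to 14.4 RPKM in all 4 FBS libraries. Ing3 was at 8.22 and 7.78 RPKM in Tet3OE cells on days 4 and 7, against 7.46 and 7.43 RPKM in control cells, and at 6.52 to 9.46 RPKM in SFEB libraries, with WT the highest on both days.

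Of the 9 genes, 6 differed between days 6 and 10 of the SFEB culture. Between days 6 and 10, limma called 3 of the 9 genes higher on day 10, where 28.2% of 13757 genes were, and 3 lower, where 18.1% were. The higher ones were Epc1 (1.04 ± 0.13, log2 ± SE, adjusted p = 0.00117), Tceal1 (0.91 ± 0.21, adjusted p = 0.0131) and Morf4l1 (0.51 ± 0.10, adjusted p = 0.00644). The lower ones were Ep400 (-0.62 ± 0.13, adjusted p = 0.00865), Trrap (-0.44 ± 0.12, adjusted p = 0.0193) and Mrfap1 (-0.39 ± 0.09, adjusted p = 0.0121). Each of the 6 genes had the same direction in KO with Dkk, KO and WT. Epc1 in particular had nearly the same difference in each condition, 1.03 in KO with Dkk, 1.02 in KO and 1.06 in WT. Without the 2 Dkk libraries, an alternative chosen after seeing the data, limma called 4035 genes in place of 6373, and Epc1, Morf4l1 and Mrfap1 were called, whereas Ep400, Tceal1 and Trrap were not (limma adjusted p = 0.0634, 0.0792 and 0.118). That fit has fewer libraries.

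Morf4l2 was not called between the days. Its difference between days 10 and 6 was -0.02 ± 0.11 (log2 ± SE, limma adjusted p = 0.906), from -0.21 in KO with Dkk, 0.12 in KO and 0.03 in WT. Tceal1, with the same split between lines, was higher on day 10 in KO with Dkk, KO and WT, and the difference between both genes over time was not tested. Kat5 was at 0.31 ± 0.13 (adjusted p = 0.0926) and Ing3 at 0.12 ± 0.14 (adjusted p = 0.511), and neither was called. In the FBS culture, between days 4 and 7, limma called 0 of the 9 genes (1, Tceal1, at an unadjusted p under 0.05), where 0.422% of all genes were called higher and 0.0291% lower. Tceal1 was at 0.74 ± 0.26 there (adjusted p = 0.229).

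**Figure D4:**
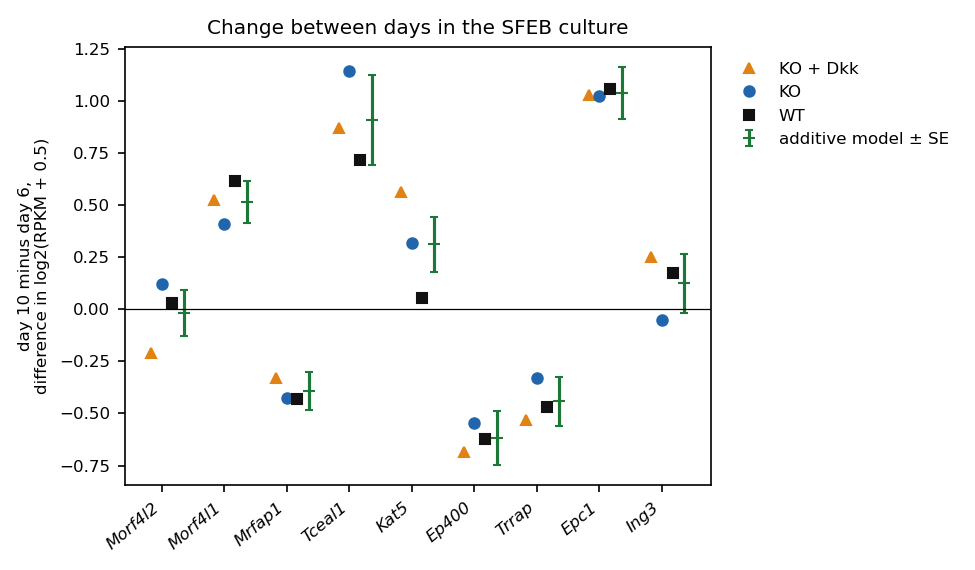
Difference between day 10 and day 6 in log2(RPKM + 0.5) for each gene in KO with Dkk (triangles), KO (circles) and WT (squares), with the additive model's estimate and its SE (green bars). Epc1, Tceal1 and Morf4l1 lie above 0 and Ep400, Trrap and Mrfap1 below 0 in all 3 conditions, while Morf4l2 lies on both sides.

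Markers of other cell types also differed between the lines, and they are given beside the Morf4l2 result. The summed RPKM of 5 mesoderm markers (T, Mesp1, Meox1, Tcf15 and Tbx6) was 20.8 in KO with Dkk, 247 in KO and 4.34 in WT on day 6, when all 5 were at least 2-fold higher in KO than in WT. On day 10 the sum was 4.51 in KO with Dkk, 7.60 in KO and 8.46 in WT, with 2 markers higher in KO and 1 lower. Those 2 were Meox1 (4.22 RPKM in KO, 0.60 RPKM in WT) and Tcf15 (1.08 RPKM in KO, 0.19 RPKM in WT), both higher in KO on both days, and the lower one was T (2.19 RPKM in KO, 7.52 RPKM in WT). Mesp1 was at 0 in KO with Dkk on day 6 and in KO and WT on day 10. Endoderm markers, 5 in number, summed to 12.3, 21.2 and 5.61 RPKM on day 6 and 16.0, 34.55 and 44.1 RPKM on day 10 in KO with Dkk, KO and WT. Most of the day 10 endoderm sums was Afp, at 8.97, 23.8 and 36.2 RPKM in the same order. On that day Afp and Sox17 were lower in KO than in WT, and Foxa2, Gata4 and Gata6 higher. Foxa2 was at 6.5 and 4.51 RPKM in KO on days 6 and 10, against 0.92 and 1.99 RPKM in WT. The sum of 5 neuron markers was 97.6, 75.2 and 165 RPKM on day 6 and 1667, 1327 and 1532 RPKM on day 10, in the order KO with Dkk, KO and WT. Neural progenitor markers, 6 in number, summed to 277, 176 and 339 RPKM on day 6 and 959, 941 and 814 RPKM on day 10 in that order. Most of the day 10 progenitor sums was Fabp7, at 713, 759 and 624 RPKM in that order. On that day Sox1 and Otx2 were lower in KO than in WT, and Pax6, Nes, Hes5 and Fabp7 higher. Otx2 was lower in KO than in WT on both days, with 5.27 and 7.10 RPKM in KO against 32.0 and 26.3 RPKM in WT. The 6 pluripotency markers summed to 51.4 to 120 RPKM in SFEB libraries.

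In the FBS culture the sum of the pluripotency markers was 1442 and 1042 RPKM in Tet3OE cells on days 4 and 7, against 1268 and 252 RPKM in control cells. Zfp42 was higher in Tet3OE on both days, with 33.0 and 23.7 RPKM against 15.45 and 7.05 RPKM in control. Neuron markers summed to 230 and 182 RPKM in Tet3OE cells, against 120 and 28.4 RPKM in control cells, and of these the tubulin gene Tubb3 was at 69.2 and 42.75 RPKM in Tet3OE against 17.99 and 6.37 RPKM in control. The pluripotency and neuron sums were thus higher in Tet3OE on both days. On day 4 most of the pluripotency sum was Pou5f1, at 1186 RPKM in Tet3OE and 1118 RPKM in control. Among neuron markers on that day Tubb3, Elavl3 and Stmn2 were higher in Tet3OE, while Dcx and Map2 (listed as Mtap2) were not. Sums of the neural progenitor markers were 58.6 and 78.8 RPKM in Tet3OE cells, against 74.0 and 22.1 RPKM in control cells. Sox1 (16.3 and 5.61 RPKM in Tet3OE, 1.24 and 0.05 RPKM in control) and Pax6 (5.71 and 3.47 RPKM in Tet3OE, 1.57 and 0.33 RPKM in control) were higher in Tet3OE on both days. The rest of that list, Nes, Otx2, Hes5 and Fabp7, were lower in Tet3OE on day 4 and higher on day 7. Nes was more than 2-fold lower on day 4, at 8.61 RPKM in Tet3OE against 31.45 RPKM in control. The sums of endoderm markers were 2.73 and 30.7 RPKM in Tet3OE cells, against 7.58 and 67.65 RPKM in control cells, with Afp at 0 in Tet3OE on day 4. Gata6 was lower in Tet3OE on both days, with 0.28 and 4.71 RPKM against 1.27 and 24.1 RPKM in control. The mesoderm sum was 39.9 and 28.1 RPKM in Tet3OE cells, against 79.95 and 10.2 RPKM in control cells, while Tcf15 alone was higher in Tet3OE on both days (38.1 and 10.99 RPKM, against 9.51 and 2.16 RPKM in control). The part of these cell types in the Morf4l2 result was not tested. In bulk samples, fewer cells of a type and less RNA per cell cannot be told apart.

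Tceal1 and Morf4l2 are neighbours on the X chromosome, with no protein-coding gene between them in the RefSeq table. Morf4l2 lies on the minus strand and Tceal1 on the plus strand, with their ends facing. On the other side lies BC065397, a long non-coding RNA on the plus strand, whose RefSeq range overlaps that of Morf4l2 by 730 bases at the start of both genes. BC065397 was singled out because, of 10698 genes with a log2 span of 1 or more, its profile over the 10 libraries had the highest Pearson correlation with Morf4l2 (0.94). It was at 0 RPKM in Tet3OE cells on both days, against 0.74 and 0.48 RPKM in control cells on days 4 and 7. On day 6 it was at 1.08, 0.96 and 0 RPKM in KO with Dkk, KO and WT, and on day 10 at 1.20 RPKM in KO with Dkk, 1.36 RPKM in KO and 0.03 RPKM in WT. The split by line was the same as for Morf4l2, with no overlap between the sides. Its level was 0.208% to 0.603% of that of Morf4l2 in the 6 libraries where it exceeded 0.03 RPKM, and the exons of both genes overlap by 98 of 3515 bases in GENCODE vM21. The sources used here do not say whether reads were counted by strand, so its reads and those of Morf4l2 cannot be told apart there.

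The genes around these 3 were counted in the same way. Of the 15 protein-coding genes on each side of Morf4l2, 28 were in the table besides members, of which 17 reached 1 RPKM in SFEB libraries and 13 in FBS libraries. In KO against WT on day 6, 0 of 17 were at least 2-fold higher and 1 (5.88%) lower, beside 4.88% and 2.18% of all genes, with a median log2 ratio of -0.21 beside 0. On day 10, 1 (5.88%) was higher and 0 lower, beside 8.26% and 1.96%, with a median of -0.15 beside 0.06. In Tet3OE against control on day 4, 0 of 13 were higher or lower, beside 1.72% and 3.47%, with a median of -0.20 beside -0.07. On day 7, 0 were higher and 3 (23.1%) lower, beside 6.96% and 11.1%, with a median of -0.36 beside -0.03. Each share rests on 3 genes or fewer. The additive model called 0 of 17 in each of these contrasts (1 in KO minus WT and 4 in Tet3OE minus control at an unadjusted p under 0.05). Tceal3, the nearest expressed gene beyond Tceal1, was at 0.46 to 1.04 RPKM in FBS libraries, and at 1.51, 0.52 and 0.44 RPKM in KO with Dkk, KO and WT on day 6 and 2.89, 2.30 and 1.03 RPKM on day 10. The pseudocount decides whether it passes 2-fold in KO against WT on day 10, since the RPKM themselves differ 2.23-fold and the log2 difference is 0.87 with a pseudocount of 0.5 and 1.09 with 0.1. On the other side Glra4 was at 0 in every library.

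**Figure D5:**
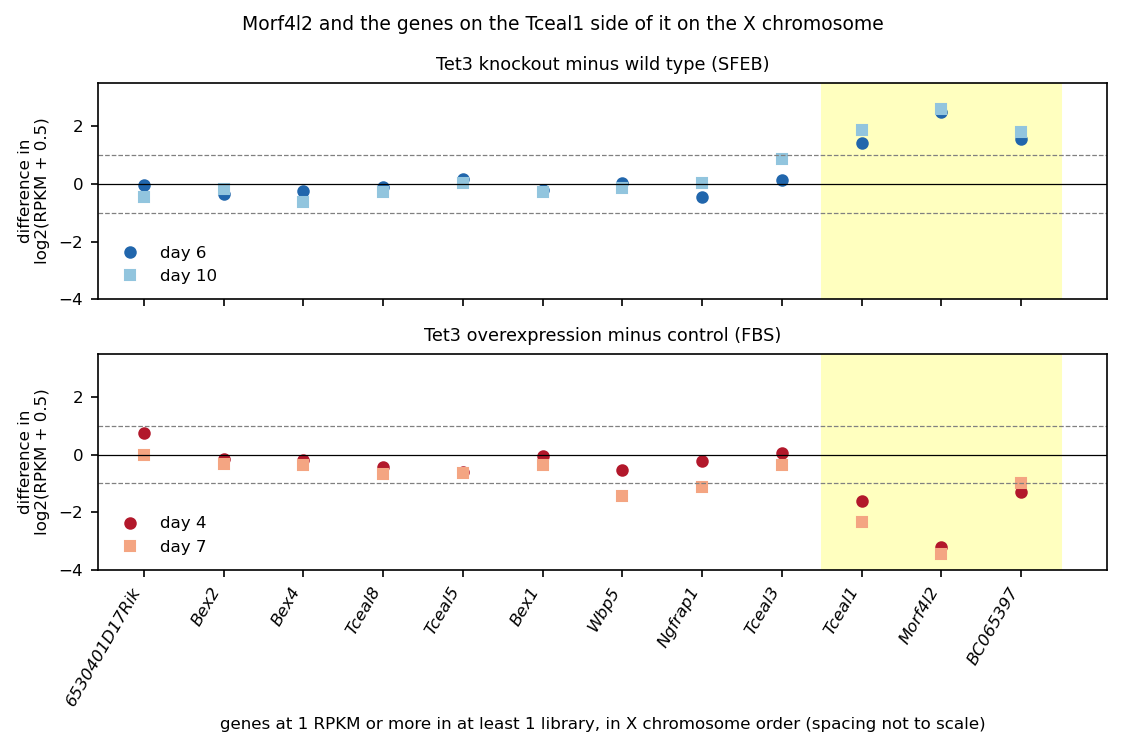
Difference in log2(RPKM + 0.5) for Morf4l2, BC065397 and the genes on the Tceal1 side of them, in their order on the X chromosome, KO minus WT above and Tet3OE minus control below, 1 marker per day, with dashed lines at 2-fold. Tceal1, Morf4l2 and BC065397 (shaded) are above 1 in KO minus WT on both days and at -0.97 or below in Tet3OE minus control, and Tceal3 beside them is at 0.12 and 0.87 in KO minus WT. Genes on the other side are in the counts and not in the plot.

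Other X-linked genes are given beside the shares of all genes, with no test of the difference between those shares. Of 464 X-linked genes besides members, KO exceeded WT by 2-fold or more at 18 (3.88%, beside 4.88% of all genes) and was below it at 15 (3.23%, beside 2.18%) on day 6. On day 10 KO was above WT at 21 (4.53%, beside 8.26%) and below it at 20 (4.31%, beside 1.96%). In Tet3OE against control, 9 of 430 were higher (2.09%, beside 1.72%) and 27 lower (6.28%, beside 3.47%) on day 4. On day 7, 29 were higher (6.74%, beside 6.96%) and 62 lower (14.4%, beside 11.1%). The medians on the log2 scale were -0.08 and -0.16 for KO minus WT on days 6 and 10, and -0.15 and -0.14 for Tet3OE minus control on days 4 and 7. The 10 relatives of Tceal1 in the Tceal and Bex family held 7 genes at 1 RPKM or more. Of these, 0 were 2-fold different in KO against WT on either day (1, Tceal3, on day 10 by RPKM alone), beside the shares of all genes given above. In Tet3OE against control 1 (14.3%), Ngfrap1, was lower on day 7 (302 RPKM in Tet3OE, 661 RPKM in control), beside 11.1% of all genes. In KO with Dkk against WT, Tceal3 was higher on both days (log2 1.10 and 1.15), where 1.58% and 4.59% of all genes were. From WT values of 0.44 and 1.03 RPKM, these differences were under 2-fold with a pseudocount of 1 (0.80 and 0.94).

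The wider acetylation machinery was described from lists of known subunits. Of 12 further NuA4 subunits, 0 were 2-fold different in any of the 8 comparisons. Over all genes, 0.976% to 11.1% passed 2-fold in a given direction and comparison. The median log2 ratio of the 12 lay between -0.03 and 0.42, beside -0.07 to 0.06 for all genes. The additive model called 0 of the 12 in KO minus WT (1 at an unadjusted p under 0.05), 0 in the Dkk effect (0) and 0 in Tet3OE minus control (0). In those contrasts it called 0.0145% to 0.196% of all genes in a given direction, so nothing is read from these counts of 0. Between days 6 and 10 it called 2 higher, Epc2 (0.84 ± 0.17, log2 ± SE) and Yeats4 (0.39 ± 0.12), and 3 lower, the ATPases Ruvbl1 (-0.97 ± 0.11) and Ruvbl2 (-0.89 ± 0.12) and Dmap1 (-0.42 ± 0.14). Over all 13757 genes, 28.2% were called higher and 18.1% lower between those days, so nothing particular to this list is read from the counts. Epc2 is the close relative of Epc1 and was higher on day 10 as Epc1 was. Epc2 was at 16.9, 17.9 and 27.9 RPKM in KO with Dkk, KO and WT on day 10, against 10.5, 10.8 and 12.35 RPKM on day 6.

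Of 15 subunits of SIN3 deacetylase complexes, which MRG proteins also join, 0 were 2-fold different in KO against WT or in KO with Dkk against KO. Over all genes, 1.7% to 8.26% were, in a given direction and day. In KO minus WT limma called 0 of the 15 (2 at an unadjusted p under 0.05), beside 0.196% of all genes higher and 0.0145% lower. The single 2-fold call in this list was Sap30, at 57.7 RPKM in Tet3OE against 27.2 RPKM in control cells on day 7 (log2 1.07). On that day 6.96% of 12387 genes were 2-fold higher in Tet3OE. On day 4 Sap30 was at 63.5 RPKM in Tet3OE against 45.4 RPKM in control cells (log2 0.48). In KO it was lower than in WT but short of 2-fold, at 40.2 against 75.0 RPKM on day 6 (log2 -0.89). The day 10 values were 44.1 RPKM in KO against 87.5 RPKM in WT (log2 -0.98). Of 9 other lysine acetyltransferases, 1 was 2-fold different, Kat2b, at 8.58 RPKM in Tet3OE against 3.25 RPKM in control cells on day 7 (log2 1.28). Beside the same 6.96% of all genes, nothing is read from 1 call in either list. Between days 6 and 10 limma called 2 of the 15 SIN3 genes higher (Arid4b and Hdac2) and 3 lower (Hdac1, Rbbp7 and Sin3a). It called 2 of the 9 acetyltransferases higher (Kat2b and Kat6b, listed as Myst4) and 3 lower (Hat1, Kat2a and Kat7, listed as Myst2). Beside the counts of both lists, 28.2% of all 13757 genes were called higher and 18.1% lower in this contrast between days. Kat2b was at 1.46 ± 0.17 and Kat2a, its paralog, at -1.22 ± 0.15 in that contrast (log2 ± SE).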

How the data were processed

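Total RNA of 10 mouse ES-cell libraries was extracted with a column kit and sequenced on SOLiD instruments, per the labels' protocols, with 1 library per condition and day. The authors deposited 1 table of RPKM values for 21937 gene symbols, rounded to 2 decimals. HTSeq, a read counter, and build mm9 are named in the submitters' processing notes. The sources used here do not give the aligner, annotation, strandedness or policy on multi-mapping reads, so values of paralogs and overlapping genes are uncertain. RPKM divides by the library total, so very abundant transcripts lower all others.

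Libraries were assigned by title. Ratios are log2(RPKM + 0.5) of 1 library minus another, over genes whose highest value in the culture was 1 RPKM or more (12912 SFEB, 12387 FBS), and called at 2-fold. The additive model was fitted with limma 3.58.1 in R 4.3.3 (empirical Bayes with trend, Benjamini-Hochberg over 13757 genes, adjusted p under 0.05), with culture and day, KO, Dkk and Tet3OE as terms. It has 3 residual degrees of freedom, and it was tested on simulated data. SE come from this model. With 1 library per condition and day, its spread is how far differences between conditions vary over the days of a culture. The p-values rest on that variation, which may be technical, and not on replicate cultures.

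Depth was estimated from steps between low RPKM values of 3932 genes with a single transcript in GENCODE vM21 (66.2% to 77.0% of values within 0.15 read of a whole number). That share was lowest for control on day 7. Lengths came from GENCODE vM21 for 98.2% of symbols, and are medians over transcripts, so counting intervals are approximate. They carry no pseudocount, which is why a ratio of a low gene can lie outside its interval.

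The members and gene lists were chosen with earlier results of these data known. Genes named besides members were at least 2-fold different in all 4 line comparisons with the signs of Morf4l2, up to 8, or most correlated with Morf4l2 or Tceal1, 5 each, while list genes named for a call or a test, and the neighbours Tceal3 and Glra4, were named after their values were seen. The values of 1 neighbour are not reported here. From each list, genes 2-fold different in the same direction on both days, in KO against WT or in Tet3OE against control, are also named, all of them markers, since the acetylation, Tceal and Bex and neighbour lists held none. Gene order and promoters are from RefSeq on GRCm38.p6 and are not joined to coordinates of mm9. Alternatives were pseudocounts of 0.1 and 1, filters, TPM scaling, centring on the median, limma without trend, each culture alone and leaving out the Dkk libraries.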

Additional observations from a re-analysis of the deposited data

Results flagged for a closer look

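Morf4l2 moved in opposite directions between days 6 and 10 with and without Dkk. On the log2 scale day 10 minus day 6 was -0.21 in KO with Dkk (counting interval -0.27 to -0.14) and 0.12 in KO (interval 0.03 to 0.21), and both intervals lay clear of 0. The levels on days 6 and 10 were 261 and 225.6 RPKM in KO with Dkk, against 207 and 225.7 RPKM in KO. The difference between the 2 conditions was not tested, and each value rests on 1 library per day.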

How the results depend on the processing

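No paired analysis was possible because each condition and day has 1 library and all replicate numbers are 1. All 72 ratios of the 9 genes in the 8 comparisons kept their side of 2-fold under pseudocounts of 0.1 and 1, TPM scaling and centring on the median. Of the members' results in the additive model, leaving out Morf4l2 and Tceal1 in the 3 contrasts between lines, for which no test is given, 342 kept direction and call, 4 lost the call and 6 changed sign. Tceal1 between days 6 and 10 had an adjusted p of 0.0590 with no filter, and the other 3 losses, without the Dkk libraries, are given above. The sign changes were in results that were never called: under TPM scaling Ep400 in KO minus WT (-0.0077) and KO with Dkk minus WT (-0.048), Epc1 in Tet3OE minus control (-0.016) and Morf4l2 between days 10 and 6 (0.034), with a pseudocount of 1 Ep400 in the Dkk effect (0.00014), and without the Dkk libraries Morf4l2 between days 10 and 6 (0.075).

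Counts of 2-fold calls moved most with the filter and pseudocount. A filter of 5 RPKM tests fewer genes, and gave 550 and 778 calls for KO against WT on days 6 and 10 (912 and 1320 in the report), 447 and 471 for KO with Dkk against KO (743 and 895), 168 and 533 for KO with Dkk against WT (330 and 810), and 415 and 1407 for Tet3OE against control on days 4 and 7 (643 and 2239). A pseudocount of 0.1 gave 1424 for KO against WT, 1151 for KO with Dkk against KO and 709 for KO with Dkk against WT on day 6, and 975 for Tet3OE against control on day 4. KO with Dkk against WT on day 6 gave 192 with a pseudocount of 1 and 512 under TPM scaling, and on day 10 the split of 593 higher and 217 lower became 580 and 415 under TPM scaling.

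limma called 29 genes in KO minus WT, and 12 with a pseudocount of 0.1, 14 with 1, 58 under TPM scaling (48 higher and 10 lower, against 27 and 2), 2 with no filter, 12 without trend, 253 with SFEB libraries alone and 3 without Dkk libraries. For the Dkk effect, 18 calls became 6 with a pseudocount of 0.1, 1 with no filter, 6 without trend and 86 in the SFEB culture alone. The 1 call of KO with Dkk minus WT, which was Morf4l2 and from which nothing is read, became 0 without trend, with 1415 genes at an unadjusted p under 0.05. For Tet3OE minus control, 13 became 47 with no filter, 3 without trend and 0 in the FBS culture alone, with 1398 unadjusted. Between days 4 and 7, 62 became 94 and 41 with pseudocounts of 0.1 and 1, 15 without trend and 0 in the FBS culture alone, with 1187 unadjusted. Between days 6 and 10, 6373 became 4035 without the Dkk libraries. The cause of these changes was not tested.

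Depth limits Tceal1 and BC065397 most, whose levels in the low libraries rest on few reads. Morf4l2, Morf4l1 and Mrfap1 have narrow counting intervals, but those leave out the spread between cultures, which 1 library per condition cannot show.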

Other observations

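Besides BC065397, the genes whose profiles over the 10 libraries were most like that of Morf4l2, by Pearson correlation among 10698 genes, were Hdac5 (0.94), a class IIa histone deacetylase, Bmp7 (0.91), a secreted growth factor, Nat6 (0.88), an acetyltransferase gene, and Fuz (0.87), a planar polarity effector. Tceal1 stood at rank 16 in that order (0.83). Hdac5 was at 11.1 and 13.6 RPKM in Tet3OE cells on days 4 and 7, against 25.3 and 27.4 RPKM in control cells. In the SFEB culture Hdac5 was at 26.1, 19.7 and 16.7 RPKM in KO with Dkk, KO and WT on day 6. On day 10 Hdac5 was at 27.9 RPKM in KO with Dkk, 26.5 RPKM in KO and 16.4 RPKM in WT. Bmp7 was at 5.07 and 8.28 RPKM in Tet3OE cells, against 12.2 and 13.2 RPKM in control cells. In SFEB cells Bmp7 was at 11.9 RPKM in KO with Dkk, 13.7 RPKM in KO and 5.73 RPKM in WT on day 6. On day 10 Bmp7 was at 12.6 RPKM in KO with Dkk, 13.8 RPKM in KO and 5.46 RPKM in WT. Both genes had WT and Tet3OE libraries below their partners on each day, by less than Morf4l2.

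The profiles most like that of Tceal1 were Tspan31 (0.96), Ccdc157 (0.96), Dab2ip (0.95), 1110012D08Rik (0.95) and Ephb6 (0.94), and Morf4l2 stood at rank 340. Tspan31 was at 34.3 and 38.8 RPKM in Tet3OE cells, against 44.6 and 55.2 RPKM in control cells, so its differences were small beside those of Tceal1. These correlations are over libraries that share lines, cultures and days and are given as a description. Within the 9 genes, Morf4l1 and Mrfap1 had a correlation of -0.88 over the 10 libraries.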
